A study of Mus musculus with 18 samples.

Results

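The 10 genes described here are fibroblast growth factor (FGF) ligands, FGF receptors and the genes that FGF receptor signaling switches on to restrain or execute its own output. They are the ligands *Fgf2* and *Fgf9*, the receptors *Fgfr1*, *Fgfr2* and *Fgfr3*, the Sprouty genes *Spry1*, *Spry2* and *Spry4*, and the ETS transcription factors *Etv4* and *Etv5*. They were picked by gene name from a rule that uses no measured value, though with earlier results of these data known, and all 10 were found among the 23138 to 54429 gene names of each of 4 RNA-seq tables. A name listed more than once was represented by its most abundant entry.

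FGFs bind receptor tyrosine kinases together with heparan sulfate. The receptors signal through the adaptor FRS2, Ras and the ERK kinases, and ERK activity induces *Etv4*, *Etv5*, the Sproutys and the phosphatase gene *Dusp6*. The Sproutys in turn dampen the Ras-ERK cascade. In the developing forebrain FGF signaling patterns the cortex from its rostral pole and keeps radial glia (neural progenitors) dividing, and *Fgfr3* is enriched in ventricular zone progenitors and later in astrocytes.

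The study asked how loss of the CxxC zinc finger of KDM2B, the part of this protein that binds unmethylated CG-rich DNA and brings a variant Polycomb repressive complex (PRC1) there, alters the developing hippocampus. Bulk poly-A RNA-seq was done on 18 mouse libraries in 4 tables, from tissue at postnatal day 0 or from neurospheres cultured from such tissue. In 3 of them, controls (Kdm2b fl/+ or Kdm2b fl/fl, not told apart in the labels) were compared with Kdm2b Emx1-delta-CxxC conditional knockouts (cKO), in hippocampus (3 control and 3 cKO), in neurospheres grown from the hippocampus (2 and 2) and in cortex (2 and 2). In the fourth, Rnf2 fl/+ or Rnf2 fl/fl controls were compared with Rnf2 Emx1-cKO in hippocampus (2 and 2); *Rnf2* encodes the ubiquitin ligase of PRC1. Emx1-Cre acts in dorsal telencephalic progenitors and their progeny, so vessels, microglia, meninges and interneurons that migrate in from elsewhere keep the intact gene in tissue libraries. The neurospheres, which the labels call NPC, had been passaged for several generations before sequencing. Their medium held N2, B27 and human recombinant FGF2 and EGF at 20 ng/mL each, in controls and cKO alike. FGF2 and EGF were thus both supplied from outside, and their levels at harvest are not given. The part of either factor in the neurosphere values was not tested. No source says that replicates are separate animals or cultures, and p-values then measure only the spread between these libraries.

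The unit is FPKM (fragments counted per kilobase of a gene's transcript, scaled to the size of the library), which is per length, so that levels of different genes can be set side by side within a library. Each table was normalized by itself, and levels in different tables are given side by side without a test. Differences are on the log2(FPKM + 1) scale, cKO minus control, from limma fitted to all genes whose mean reached 0.5 FPKM, and this scale understates the difference of low genes. A gene was called when the log2 fold change was over 0.4 in size at an unadjusted p under 0.05, the thresholds the study used, and the Benjamini-Hochberg adjusted p over all genes of the fit is given beside it.

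The Kdm2b hippocampus and neurosphere tables hold no read counts or gene lengths, so the depth behind a value there could not be computed, and the reads recovered from FPKM and gene length came to between 18480515 and 21905224 per cortex library and between 14654894 and 16334420 per Rnf2 library. Neurosphere control 1 stood apart: 29.3% of its FPKM lay in entries without a gene name and 15.9% in *Mir6236*, and it summed to 855276 FPKM where the other neurosphere libraries summed to 452580 to 522964. No marker of the hippocampus, neuron or radial glia lists was at 0 throughout a tissue table, and in control neurospheres the radial glia markers summed to 4618 to 5074 FPKM and the neuron markers to 232.3 to 242.8. In the neurospheres 1392 genes were called higher and 1620 lower. These counts were 1256 and 830 when libraries were rescaled to the same total, which moved the median of all genes from -0.01 to 0.09 (log2). That total was taken over named genes, with the most abundant entry of each, so it left out nameless entries but kept *Mir6236*. Values under this scaling therefore also depend on *Mir6236* in control 1. *Xist* was at 153.8 FPKM in hippocampus cKO 1 only, where the other libraries of that table were at 0.0732 or below, at 0.361 FPKM in neurosphere cKO 1 against 140 or more in the other neurosphere libraries, and at 0.0177 FPKM in cortex control 1 against 132 or more in the others. The whole-gene *Kdm2b* level, which includes the exons outside the deletion and so does not check it, was 29.4 ± 2.15 FPKM in control and 27.2 ± 0.99 in cKO hippocampi (SD, n = 3 each). *Rnf2* was at 31.5 ± 1.02 FPKM in Rnf2 controls and 28.1 ± 0.49 in the libraries labelled Rnf2 cKO (SD, n = 2 each; log2 difference -0.16, adjusted p = 0.76). The mean *Rnf2* level in those cKO libraries was thus close to that of their controls, and the table does not separate the floxed part.

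Of the 8 members tested in neurospheres 2 were called, the receptors *Fgfr3* and *Fgfr2*, both lower in cKO, beside 24.6% of all genes. The *Fgfr2* call did not pass the adjusted threshold and was lost without some libraries. Because the deleted domain binds CG dinucleotides, the sequence around their annotated starts is shown, and binding of KDM2B there was not tested. These are RefSeq promoters (GRCm38.p6, 300 bases around each start, 5′ to 3′ on the gene's strand), with each CG in capitals. *Fgfr3* lies on chromosome 5 (GRCm38, 33721674 to 33737068, plus strand), with starts in chr5:33721474-33721773 and chr5:33722056-33722355. *Fgfr2* lies on chromosome 7 (130162451 to 133123350, minus strand), and the start in the RefSeq table is in chr7:130266759-130267058, far inside that gene record, whose 5′ end has no window here.
*Fgfr3*, upstream start: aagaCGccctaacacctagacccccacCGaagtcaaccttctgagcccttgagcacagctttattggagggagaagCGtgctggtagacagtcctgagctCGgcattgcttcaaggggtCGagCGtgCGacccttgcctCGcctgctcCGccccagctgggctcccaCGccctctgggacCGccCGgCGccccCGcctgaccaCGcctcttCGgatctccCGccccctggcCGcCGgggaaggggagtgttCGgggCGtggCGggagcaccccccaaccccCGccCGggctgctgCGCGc
*Fgfr3*, downstream start: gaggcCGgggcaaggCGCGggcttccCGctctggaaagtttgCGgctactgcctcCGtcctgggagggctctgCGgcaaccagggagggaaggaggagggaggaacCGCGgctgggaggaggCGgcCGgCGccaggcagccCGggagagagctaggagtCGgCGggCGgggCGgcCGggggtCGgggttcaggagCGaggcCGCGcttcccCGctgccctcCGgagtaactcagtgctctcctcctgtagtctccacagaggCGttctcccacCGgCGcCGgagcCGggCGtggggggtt
*Fgfr2*: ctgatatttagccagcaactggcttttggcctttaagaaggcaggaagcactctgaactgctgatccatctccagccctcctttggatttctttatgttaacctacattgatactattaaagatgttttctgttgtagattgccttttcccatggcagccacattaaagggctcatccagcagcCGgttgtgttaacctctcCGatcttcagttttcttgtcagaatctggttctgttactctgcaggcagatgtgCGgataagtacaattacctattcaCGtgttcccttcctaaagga

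The *Fgfr3* windows hold 26 and 30 CG, counts reached by 16.9% and 11.7% of the 32851 promoters in the table, whose median was 7. The *Fgfr2* window holds 4, a count reached by 68.6% of promoters. Of the other members, *Etv5* had starts with 37 and 19 CG, *Spry1* 29, *Spry2* 28, *Fgf2* 24 and *Fgf9* 12. *Fgfr1*, *Spry4* and *Etv4* have no entry in the table. The letters CCGGAAGT, a form of the ETS motif, were found on neither strand of any of these windows and in 3.89% of all promoters.

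The ligand genes were low in every table. *Fgf2*, which encodes a progenitor mitogen, was at 0.803, 0.917 and 0.516 FPKM in control hippocampi and 0.777, 0.517 and 0.454 in cKO hippocampi. These groups overlapped (log2 difference -0.14, 95% interval -0.45 to 0.17). In the Rnf2 table *Fgf2* was at 0.877 and 0.891 FPKM in controls (89 and 94 reads) and 0.518 and 0.547 in cKO (58 and 60 reads). The groups did not overlap, which 38.3% of all genes tested in that table also showed, and the difference of -0.30 did not pass (95% interval -0.79 to 0.20, adjusted p = 0.77). With limma-voom on the recovered reads it was -0.73 and was called (adjusted p = 0.70). In cortex *Fgf2* was under the filter, with 0.187 and 0.201 FPKM in controls and 0.293 and 0.308 in cKO, or 28 and 29 against 39 and 39 reads. In neurospheres, which received the protein in the medium, it was at most at 0.151 FPKM in any library and was listed at 0 in control 2.

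*Fgf9*, whose product acts on FGFR2 and FGFR3 among others, was at 1.89, 1.76 and 2.08 FPKM in control and 1.64, 1.94 and 2.44 in cKO hippocampi, with the groups overlapping (log2 difference 0.04, 95% interval -0.24 to 0.32). In the Rnf2 table the controls, at 0.891 and 1.60 FPKM, lay on either side of the cKO at 1.24 and 1.25. In neurospheres *Fgf9* was listed at 0 in control 1 and stood at 0.115 FPKM in control 2, against 0.807 and 0.719 in cKO. Its mean was under the filter of 0.5 FPKM, so it was not tested there. With no filter on low values the difference was 0.74 on the log2 scale (adjusted p = 0.019). In cortex it was at 0.312 and 0.314 FPKM in controls and 0.504 and 0.679 in cKO, or 32 and 31 against 46 and 59 reads. Both ligand genes thus lay higher in the cKO libraries than in the controls of the neurosphere and cortex tables, at under 1 FPKM throughout. Groups that did not overlap were also seen for 66.4% and 44.8% of all genes tested in those tables. Neither ligand gene passed the filter there, so these shares are over other, more abundant genes.

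**Figure D1:**
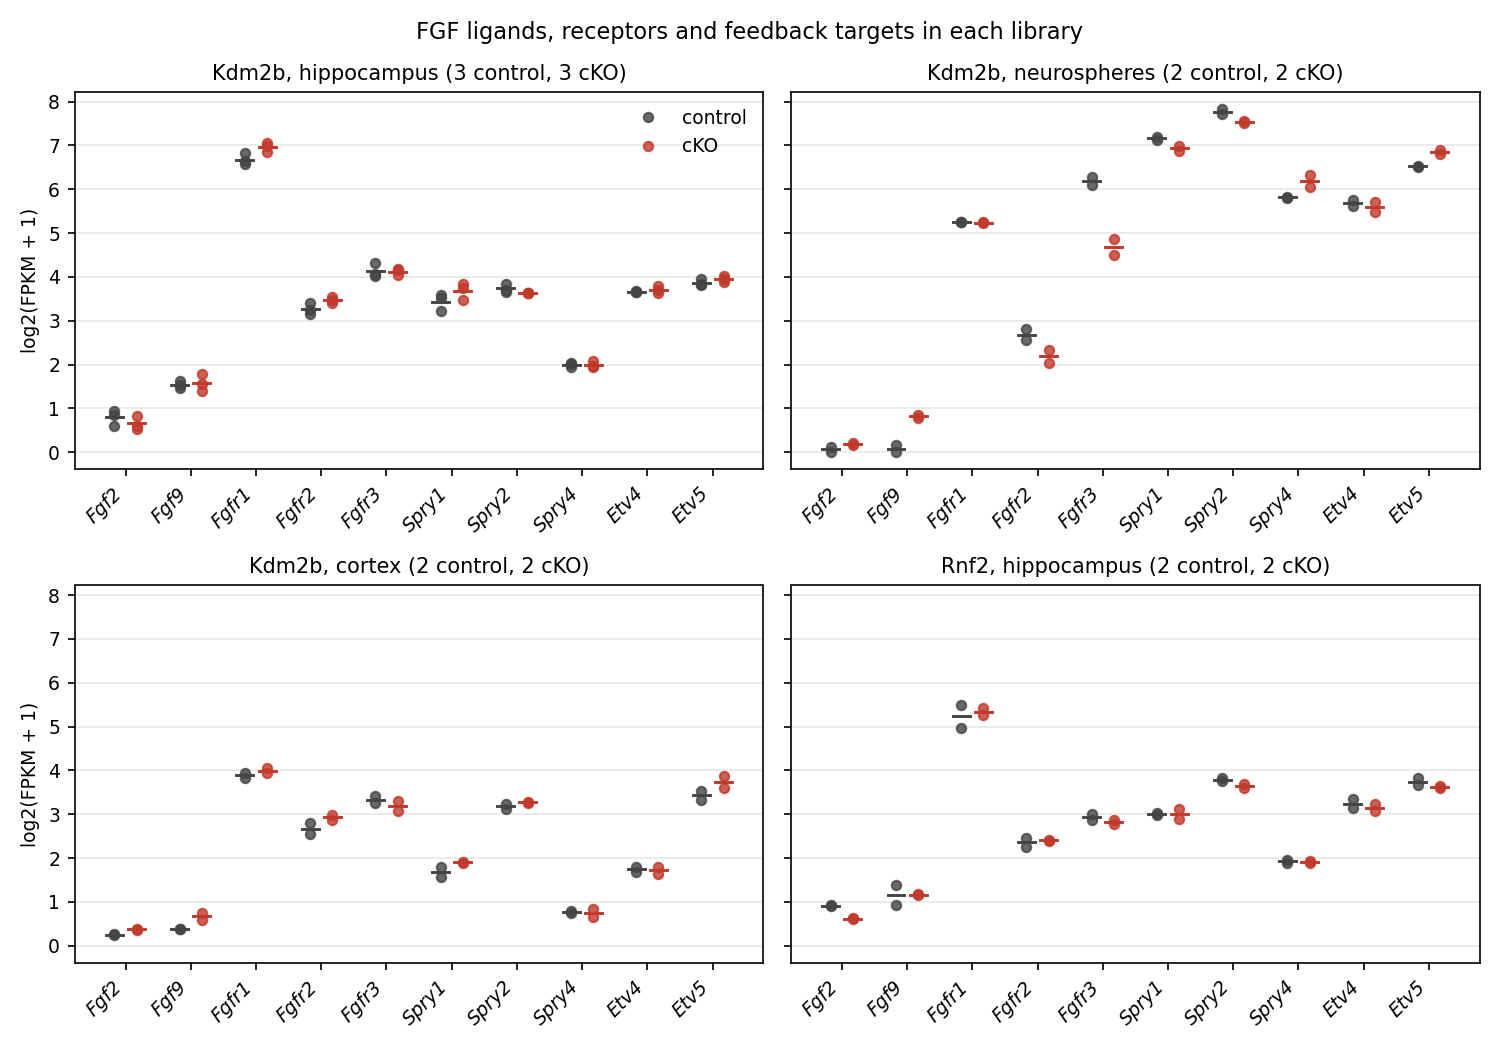
Level of each gene on the log2(FPKM + 1) axis in each library (points) of the 4 tables, with the mean of each group as a line and control and cKO libraries side by side. The separation of *Fgfr3* in neurospheres (76.4 and 67.4 FPKM in controls, 28.0 and 21.6 in cKO) is the widest of the panel, and *Fgfr1* is the highest member in the tissue tables.

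*Fgfr1* was the most abundant member in each tissue table, at a mean of 101.3 FPKM in control hippocampi of the Kdm2b table, 37.3 in those of the Rnf2 table and 13.8 in control cortex, each above the range of the next gene. In control hippocampi the order below it was *Fgfr3* (16.7 FPKM), *Etv5* (13.6), *Spry2* (12.4), *Etv4* (11.7), *Spry1* (9.91), *Fgfr2* (8.64), *Spry4* (2.98), *Fgf9* (1.91) and *Fgf2* (0.745). *Etv5* and *Spry2*, *Spry2* and *Etv4*, and *Spry1* and *Fgfr2* overlapped with each other over the libraries, and the other neighbours did not. Control neurospheres had another order, led by *Spry2* (217.6 FPKM), *Spry1* (142.7), *Etv5* (90.9) and *Fgfr3* (71.9), with *Spry4* at 55.3, *Etv4* at 50.2 and *Fgfr1* at 37.0 below them. In cKO neurospheres *Fgfr3*, at a mean of 24.8 FPKM, stood below *Fgfr1* at 36.7, with no overlap of the libraries. In control cortex *Etv5* (9.81 FPKM) and *Fgfr3* (9.11) followed *Fgfr1* and overlapped with each other, and *Spry4* (0.715) was the lowest member over the filter.

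In cKO neurospheres *Fgfr3* fell from 76.4 and 67.4 FPKM in controls to 28.0 and 21.6, and *Fgfr2* fell from 5.99 and 4.91 FPKM to 3.10 and 4.04. These were 2 of the 8 members tested there, where 24.6% of all 12227 genes tested were called. The *Fgfr3* difference was -1.51 (SE 0.14, 95% interval -1.85 to -1.16, adjusted p = 0.0023), and it was called with each library left out in turn (-1.69 to -1.33). Without neurosphere control 1, the library that stood apart, it was -1.42 (adjusted p = 0.037, where the alternatives ranged from 0.00016 to 0.037). The *Fgfr2* difference was -0.50 (SE 0.16, 95% interval -0.88 to -0.11, unadjusted p = 0.020 from the limma fit) with an adjusted p of 0.071. The *Fgfr2* call was lost without control 1 (-0.38, adjusted p = 0.35), without cKO 1 (-0.35, under the fold threshold) and with libraries rescaled to the same total (-0.40, adjusted p = 0.59). *Fgfr1* was at 36.9 and 37.1 FPKM in controls and 36.5 and 36.9 in cKO, with a difference of -0.01 (95% interval -0.19 to 0.18) that became 0.11 with libraries rescaled to the same total.

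In Kdm2b cKO hippocampi no member was called, 0 of 10 tested by limma against 6.14% of all 13446 genes, and *Fgfr1* and *Fgfr2* were at an unadjusted p under 0.05 there. *Fgfr1* was at 93.7, 112 and 98.2 FPKM in controls and 125.2, 114.9 and 131.2 in cKO hippocampi. The groups were apart by a narrow margin, with a difference of 0.29 (SE 0.07, 95% interval 0.12 to 0.46, adjusted p = 0.046) that lay under the fold threshold. Its adjusted p ranged from 0.023 to 0.15 over the alternatives. *Fgfr2* was at 9.55, 7.88 and 8.50 FPKM in controls and 10.03, 9.65 and 10.7 in cKO (0.21, 95% interval 0.02 to 0.40, adjusted p = 0.17). *Fgfr3*, at 15.2, 19.0 and 15.8 FPKM against 17.0, 15.5 and 16.8, overlapped fully and had a difference of -0.02 (95% interval -0.21 to 0.18). Of the 10 members, 3 had groups that did not overlap in these hippocampi, *Fgfr1* and *Fgfr2* higher and *Spry2* lower in cKO, beside 29.2% of all genes tested.

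In cKO cortex none of the 8 members tested by limma was called, none was at an unadjusted p under 0.05, and 7.01% of all 15691 genes tested were called. *Fgfr1* was at 13.2 and 14.4 FPKM in controls and 15.7 and 14.2 in cKO. *Fgfr2* was at 4.84 and 5.96 FPKM against 6.93 and 6.33 (difference 0.26, 95% interval -0.04 to 0.55), and *Fgfr3* at 9.71 and 8.51 against 8.80 and 7.43 (-0.15, 95% interval -0.44 to 0.14). The groups of 4 of the 8 did not overlap, beside 44.8% of all genes tested.

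In the Rnf2 table none of the 10 members was called by limma and none was at an unadjusted p under 0.05, beside 4.71% of all 15764 genes called. *Fgfr1* varied widely among controls, at 30.5 and 44.0 FPKM, with the cKO between them at 37.4 and 41.7. *Fgfr2* (3.74 and 4.53 against 4.25 and 4.31) and *Fgfr3* (6.35 and 7.07 against 6.31 and 5.84) differed by 0.05 and -0.12, with 95% intervals of -0.31 to 0.40 and -0.44 to 0.19. All 10 differences in this table were between -0.30 and 0.11.

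**Figure D2:**
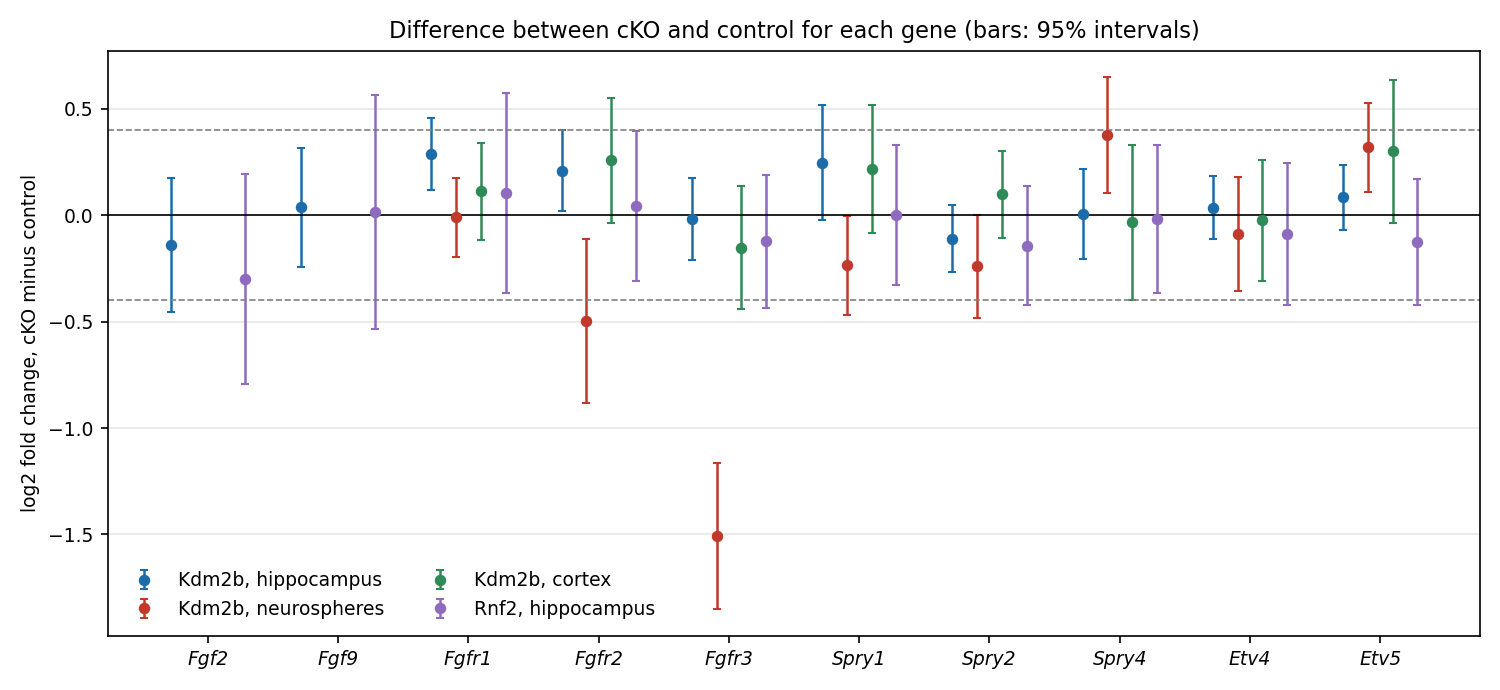
Difference between cKO and control on the log2(FPKM + 1) scale (points) with its 95% interval (bars) for each gene tested in the 4 comparisons, with dashed lines at the fold threshold of 0.4. *Fgfr3* (-1.51) and *Fgfr2* (-0.50) in neurospheres are the points past the lower line, and *Fgf2* and *Fgf9* have no point where they were under the filter.

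Whether these effects differed between tables was tested with the interaction of genotype and table. Against the Kdm2b hippocampus, the cKO effect in neurospheres was lower by -1.49 for *Fgfr3* (SE 0.16, adjusted p = 0.00013), lower by -0.71 for *Fgfr2* (SE 0.17, adjusted p = 0.0099) and higher by 0.37 for *Spry4* (SE 0.13, adjusted p = 0.049). These were 3 of 8 members, and 26.9% of the 11075 genes tested in both tables passed the same test. Between neurospheres and cortex, a pair added after the data had been seen, the effect differed for *Fgfr3* (1.36 higher in cortex, SE 0.19, adjusted p = 0.0021) and *Fgfr2* (0.76 higher, SE 0.20, adjusted p = 0.031), beside 15.8% of 10299 genes. These comparisons share the neurosphere libraries. *Fgfr3* passed both tests with any library left out. *Fgfr2* did not pass against hippocampus without neurosphere control 1 or with libraries rescaled, and against cortex it did not pass without neurosphere control 1, neurosphere cKO 1, cortex control 1 or either cortex cKO library (0.61 to 0.91). *Spry4* missed the threshold under most alternatives, among them without any 1 of the control libraries (0.24 to 0.51 over the libraries left out). Between Kdm2b hippocampus and cortex (1.61% of 10708 genes) and between Kdm2b and Rnf2 hippocampus (0.683% of 11266 genes) no member passed in the limma fit, and none was at an unadjusted p under 0.05. For *Fgfr3* the difference of effects between Kdm2b and Rnf2 hippocampus was -0.11 with a 95% interval of -0.42 to 0.21.

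As a share of the summed FPKM of the receptor genes *Fgfr1*, *Fgfr2* and *Fgfr3*, which is a description without a test, *Fgfr3* made up 62.9 ± 1.71% in control neurospheres and 38.0 ± 4.84% in cKO neurospheres (SD, n = 2 each). *Fgfr1* made up 32.4 ± 2.09% and 56.5 ± 3.52%, so the most abundant receptor in control neurospheres was *Fgfr3* and in cKO neurospheres *Fgfr1*. The summed level of the receptors was 119.3 and 109.4 FPKM in control and 67.6 and 62.6 in cKO neurospheres. In hippocampi of the Kdm2b table *Fgfr1* took 80.0 ± 0.79% in controls and 82.3 ± 0.32% in cKO, and *Fgfr3* 13.1 ± 0.49% and 10.9 ± 0.32% (SD, n = 3 each), without overlap in either case. The level of *Fgfr3* itself differed by -0.02 there, and its share also moves with the level of *Fgfr1*. The summed level there was 118.5, 138.9 and 122.5 FPKM in controls and 152.3, 140.1 and 158.7 in cKO. In cortex *Fgfr1*, *Fgfr2* and *Fgfr3* took 48.7%, 19.1% and 32.3% in controls and 50.4%, 22.3% and 27.3% in cKO, also without overlap. In the Rnf2 table the shares of each receptor overlapped between the groups, with *Fgfr1* at 77.1 ± 2.84% and 79.2 ± 1.71% (SD, n = 2 each).

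**Figure D3:**
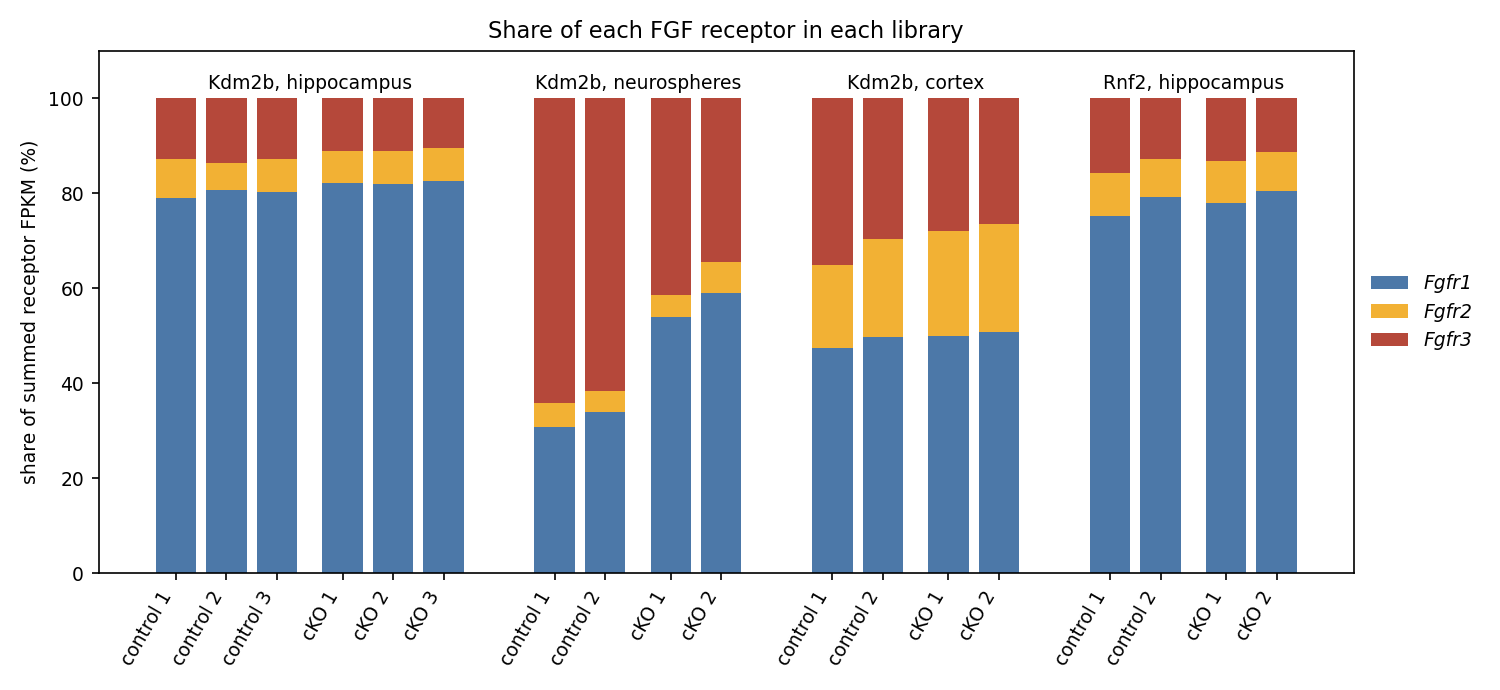
Share of *Fgfr1*, *Fgfr2* and *Fgfr3* in their summed FPKM (stacked, in percent) in each library of the 4 tables. *Fgfr3* holds 64.1% and 61.6% in the control neurospheres and 41.4% and 34.6% in the cKO neurospheres, and *Fgfr1* holds 75.1% or more in every hippocampus library.

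The Sprouty genes were not called in any comparison. In neurospheres *Spry1* was at 139.1 and 146.2 FPKM in controls and 126.7 and 115.6 in cKO (log2 difference -0.24, 95% interval -0.47 to -0.0033, adjusted p = 0.13). *Spry2* was at 209.2 and 226.0 FPKM in controls and 180.0 and 188.0 in cKO (-0.24, adjusted p = 0.13). *Spry4* lay on the other side, with 55.0 and 55.7 FPKM in controls and 65.6 and 79.3 in cKO (0.38, 95% interval 0.10 to 0.65, adjusted p = 0.060), just under the fold threshold. Without cKO 1, its difference was 0.51 and was called. The groups of 6 of the 8 members tested in neurospheres did not overlap, beside 66.4% of all genes tested.

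In the tissue tables, normalized apart from the neurospheres, no Sprouty gene was at an unadjusted p under 0.05 in the limma fits. *Spry1* was at 10.5, 8.29 and 11.0 FPKM in control and 12.4, 13.3 and 10.2 in cKO hippocampi (difference 0.25, 95% interval -0.02 to 0.52), and in cortex at 2.48 and 1.96 against 2.77 and 2.71 (0.22, 95% interval -0.08 to 0.52). *Spry2* ranged from 11.3 to 13.4 FPKM over the Kdm2b hippocampus libraries, from 7.71 to 8.76 in cortex and from 11.1 to 13.2 in the Rnf2 table, with differences of -0.11, 0.10 and -0.14. *Spry4* stayed between 2.69 and 3.22 FPKM in all hippocampus libraries and between 0.566 and 0.793 in cortex (51 to 75 reads), with differences of 0.01, -0.02 and -0.03 in the Kdm2b hippocampus, the Rnf2 hippocampus and the cortex.

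*Etv4* and *Etv5*, ETS factors used as readouts of FGF-ERK signaling, were not called either. *Etv5* in neurospheres was at 90.0 and 91.7 FPKM in controls and 110.1 and 117.4 in cKO, with a difference of 0.32 (SE 0.08, 95% interval 0.11 to 0.53, adjusted p = 0.046) that lay under the fold threshold. Its adjusted p was 0.29 without control 1 and 0.53 with libraries rescaled to the same total, and ranged from 0.023 to 0.53 over the alternatives. *Etv4* in the same libraries was at 52.7 and 47.8 FPKM against 43.5 and 51.0, overlapping, with a difference of -0.09 that turned to 0.03 with libraries rescaled. A further *Etv4* entry of this table held 2.23 to 6.03 FPKM. In cortex *Etv5* was at 9.06 and 10.6 FPKM in controls and 13.7 and 11.0 in cKO (0.30, 95% interval -0.03 to 0.64), and without cKO 2 it was called at 0.44. In the hippocampus tables *Etv5* differed by 0.08 (Kdm2b) and -0.13 (Rnf2), and *Etv4* by 0.04 and -0.09. *Etv4* was tightly spread among the control hippocampi of the Kdm2b table, at 11.7, 11.6 and 11.7 FPKM, and its cKO libraries lay at 12.8, 11.9 and 11.4.

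The other genes of the pathway were described from lists of 59 genes. In neurospheres 11 of the 40 that could be tested were called, 27.5% beside 24.6% of all genes, with 3 higher and 8 lower, and 10 of the 11 also passed the adjusted threshold. Among ligands, *Fgf1* fell from 18.8 and 19.8 to 9.28 and 13.8 FPKM (-0.72, adjusted p = 0.036), and *Fgf8*, the patterning ligand of the rostral forebrain, rose from 1.39 and 0.538 to 2.46 and 2.82 FPKM (0.92, adjusted p = 0.044). The decoy receptor gene *Fgfrl1* fell from 26.4 and 25.1 to 16.2 and 18.6 FPKM (-0.54, adjusted p = 0.015). None of the 18 adaptor and Ras-ERK cascade genes was called, with a median difference of 0.04 where the median of all genes was -0.01.

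Of the 11 other feedback inhibitors and targets tested in neurospheres, 7 were called, 5 lower and 2 higher, beside 24.6% of all genes. All 7 passed the adjusted threshold. *Dusp6*, the ERK phosphatase that FGF signaling induces, fell from 69.8 and 61.5 to 39.6 and 35.2 FPKM (-0.80, adjusted p = 0.0059). *Fos*, an immediate early gene, fell from 740 and 661 to 186 and 208 FPKM (-1.82, adjusted p = 0.0014). *Egr1* (-0.77), *Dusp5* (-0.49) and *Myc* (-0.49) fell with adjusted p of 0.010, 0.020 and 0.028. With libraries rescaled to the same total *Fgfrl1*, *Dusp5* and *Myc* were not called, and *Myc* was not called without cKO 1 either (-0.37). *Dusp4*, another phosphatase gene of the family, rose from 20.0 and 24.1 to 31.7 and 36.5 FPKM (0.61, adjusted p = 0.020), and *Il17rd*, which encodes the FGF antagonist SEF, rose from 2.45 and 2.17 to 4.49 and 3.97 FPKM (0.66, adjusted p = 0.020). The feedback genes and targets thus did not move one way in these libraries. *Dusp5*, *Dusp6*, *Fos*, *Egr1* and *Myc* were called lower, and *Dusp4* and *Il17rd* higher. *Spry1*, *Spry2* and *Etv4* (-0.24, -0.24 and -0.09) and *Spry4* and *Etv5* (0.38 and 0.32) were not called. The effect on *Dusp6* differed from that in Kdm2b hippocampus by -0.66 (adjusted p = 0.0016) and from that in cortex by 1.11 (higher in cortex, adjusted p = 0.0051).

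In Kdm2b cKO hippocampi 3 of 42 other pathway genes were called, 7.14% beside 6.14% of all genes, each of them higher and each past the adjusted threshold. *Fgf3* was at 0.274, 0.0890 and 0.213 FPKM in controls and 1.81, 2.59 and 2.0002 in cKO hippocampi (1.39, SE 0.13, adjusted p = 0.0011). *Fgf15*, a target of rostral FGF signaling and of Hedgehog in the embryonic forebrain, was at 0.653, 0.432 and 0.590 FPKM in controls and 1.17, 3.28 and 1.81 in cKO (0.93, SE 0.22, adjusted p = 0.033). *Il17rd* was at 3.32, 3.34 and 3.40 FPKM in controls and 4.81, 5.79 and 4.33 in cKO (0.45, SE 0.11, adjusted p = 0.034) and lay under the fold threshold without cKO 2 (0.35). These genes were low. Every *Fgf3* control lay under the filter of 0.5 FPKM, so *Fgf3* entered the test, and the count of 3, only through its cKO libraries. Its call is thus given as a description. In each of the 3 genes the cKO libraries all lay above the controls, and 29.2% of all genes tested there had groups that did not overlap. *Il17rd* was the gene of the 59 that passed in the same direction in hippocampus and neurospheres, and in cortex it was at 0.599 and 0.552 FPKM in controls and 1.14 and 0.964 in cKO (0.38, adjusted p = 0.33).

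In cortex 6 of 40 other pathway genes were called, 15% beside 7.01% of all genes, and none of the 6 passed the adjusted threshold. *Fgf18*, *Fgfr4*, *Fgfbp1*, *Frs3* and *Shc1* were called higher and *Fgf10* lower. Among Rnf2 libraries 1 of 41 was called, the ETS factor gene *Etv1*, at 5.15 and 4.73 FPKM in controls and 3.38 and 3.08 in cKO (-0.49, adjusted p = 0.64).

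**Figure D4:**
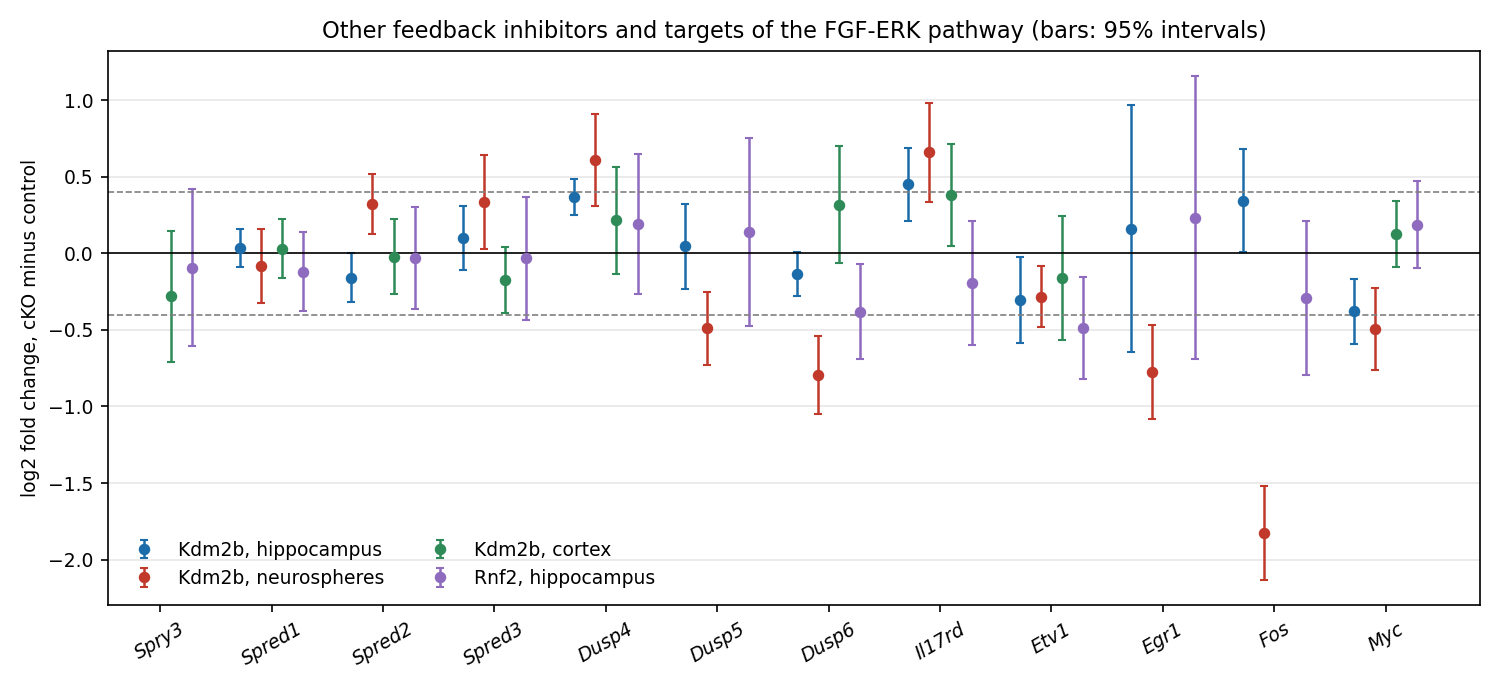
Difference between cKO and control on the log2(FPKM + 1) scale (points) with its 95% interval (bars) for the other feedback inhibitors and targets in the 4 comparisons, with dashed lines at the fold threshold of 0.4. In neurospheres *Fos* (-1.82), *Dusp6* (-0.80) and *Egr1* (-0.77) lie lowest and *Il17rd* (0.66) and *Dusp4* (0.61) highest.

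Markers of cell types also differed between cKO and control libraries, though members were called in neurospheres only. The share of all genes called was 24.6% in neurospheres, 6.14% in Kdm2b hippocampus, 7.01% in cortex and 4.71% in the Rnf2 table. In bulk samples, fewer cells of a type and less RNA per cell cannot be told apart. In cKO neurospheres, where *Fgfr3* fell, all 8 astrocyte markers fell, 7 of them past the adjusted threshold (median -2.17), and their summed level was 253.8 to 269.6 FPKM in controls and 53.9 to 62.4 in cKO. *Gja1* fell by 3.97, *Aldh1l1* by 2.29 and *Gfap* by 2.05 on the log2 scale. Of 8 oligodendrocyte lineage markers 6 fell (median -1.45), among them *Gpr17* (-3.99), while the summed level, 2533 to 2585 FPKM in controls and 2460 to 2523 in cKO, changed little. All 8 markers of cycling cells rose (median 1.08, summed level 363.5 to 382.7 against 758.5 to 808.6 FPKM). Of 10 radial glia markers *Nes* and *Vim* rose and *Hes1* and *Hes5* fell. Their summed level was 4618 to 5074 FPKM in controls and 6065 to 7801 in cKO. Of 6 neuron markers tested 1 was called higher and 3 lower, all past the adjusted threshold. The neuron list summed to 232.3 to 242.8 FPKM in controls and 170.7 to 199.7 in cKO. No astrocyte, oligodendrocyte lineage or cycling cell marker was at 0 in all libraries, and the part of these cell types in the receptor differences was not tested.

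In Kdm2b cKO hippocampi 5 of 8 microglia markers were called higher, 2 past the adjusted threshold (summed level 53.9 to 61.3 against 68.4 to 89.2 FPKM). So were 4 of 10 radial glia markers, all 4 past it (1244 to 1327 against 1270 to 1396 FPKM), and 3 of the 4 choroid plexus markers tested, none past it (5.87 to 17.4 against 8.06 to 61.6 FPKM). Of 8 astrocyte markers 2 were called lower, *Aqp4* (-0.59) and *S100b* (-0.40), with none past the adjusted threshold, members up to 0.38 and a summed level of 230.0 to 262.5 FPKM in controls and 225.7 to 316.7 in cKO. Of 5 genes tested of the thalamus list (*Tcf7l2*, *Gbx2*, *Rora*, *Lef1*, *Slc17a6* and *Prkcd*) 2 were called higher, 1 past the adjusted threshold. The list summed to 29.8 to 31.4 FPKM in controls and 43.1 to 46.0 in cKO. It includes *Lef1*, a Wnt pathway gene that the study reports as raised within cKO hippocampi, and the source of the rise was not tested. None of 8 neuron markers was called, and their summed level was 2334 to 2430 FPKM in controls and 1869 to 2160 in cKO. In cKO cortex all 7 meningeal markers tested were called higher, 4 past the adjusted threshold, with a summed level of 1.76 to 2.66 FPKM in controls and 25.7 to 33.7 in cKO. Also called higher there were 4 of 8 vessel, 3 of 7 microglia and 3 of 5 blood markers, none past the adjusted threshold, and 2 of 5 astrocyte markers, both past it. Among Rnf2 libraries 4 of 7 meningeal markers tested were called lower, none past the adjusted threshold (32.1 to 33.7 against 16.3 to 23.4 FPKM). The part of these cells in the values of *Fgfr1*, *Fgfr2*, *Fgf3*, *Fgf15*, *Il17rd* and *Fgf9* was not tested. Nor was it tested for the other pathway genes called in cortex and in the Rnf2 table.

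The genes whose deviations from the control mean of their own table were most like those of *Fgfr3* over all 18 libraries, among 9605 genes tested in all 4 tables, were *Ahcyl1* (Pearson's r = 0.976), *Gpr17* (0.973) and *Dock4* (0.972). These correlations are a description. They rest mostly on the neurosphere libraries, where *Ahcyl1*, *Gpr17* and *Dock4* differed by -0.68, -3.99 and -1.19, while in the other tables their differences were between -0.34 and 0.11. The genes most like *Etv5* were *Lama1* (0.894), *Zeb1* (0.882) and *Tdrd7* (0.878), whose differences in neurospheres were 0.66, 0.41 and 0.39. In cortex their differences were 0.64, 0.28 and 0.29. They were 0.10, 0.15 and 0.05 in Kdm2b hippocampus and -0.08, -0.28 and -0.07 in the Rnf2 table.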

How the data were processed

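The authors deposited FPKM per gene and library in 4 tables. For hippocampus and neurosphere libraries the methods name cutadapt, STAR on mm10 and featureCounts (whose counts were not used here), and the submitters' processing notes name Cufflinks 2.2.1; the aligner and counter of the cortex and Rnf2 tables are not given in the sources used here. The deposited cortex and Rnf2 tables also hold gene length in bases (GRCm38). No authors' fold changes or p-values were used.

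Entries without a gene name were 2861 of 27180 (hippocampus), 2059 of 26293 (neurospheres), 140 of 54672 (cortex) and 0 of 54532 (Rnf2), and stayed out of tests. The log2 transform used a pseudocount of 1, genes averaging under 0.5 FPKM were dropped, and limma 3.58.1 (lmFit, eBayes with trend, R 4.3.3) was fitted to each table, with 95% intervals. A genotype by table interaction was fitted to pairs of tables and called at an adjusted p under 0.05. FPKM times gene length gave whole reads (within 0.1, for values up to 1000 reads) in 100% of cortex and Rnf2 values, and limma-voom on those reads was an alternative. On simulated data 200, 193, 198 and 191 of 200 changed genes were recovered in the hippocampus, neurosphere, cortex and Rnf2 fits. Each changed gene was given a shift of 1 log2 unit, and only genes above a set level were chosen. The recovery thus does not measure the power for smaller differences or for low genes.

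The members, the gene lists and the tests were chosen with earlier results of these data known. Named genes are all members, the listed pathway genes called with an adjusted p under 0.05, and the 3 genes most like *Fgfr3* and *Etv5* each. The 6 cortex genes and *Etv1* called without an adjusted p under 0.05 and the marker genes were named after their values were seen. The alternatives were another pseudocount, filter, scaling or moderation, a replicate block, the sum of entries of a name, and each library left out. Promoter sequences are from RefSeq (GRCm38.p6), which has 7 of the 10 members.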

Additional observations from a re-analysis of the deposited data

Results flagged for a closer look

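The effect of the Kdm2b cKO on 3 members differed between tables by the interaction of genotype and table. Against hippocampus, the effect in neurospheres differed by -1.49 for *Fgfr3*, by -0.71 for *Fgfr2* and by 0.37 for *Spry4*. Against neurospheres, the effect in cortex differed by 1.36 for *Fgfr3* and by 0.76 for *Fgfr2*. The neurosphere libraries enter both comparisons, and so many genes passed the same tests (26.9% and 15.8%) that these members do not stand out by passing.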

How the results depend on the processing

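Over the alternatives 24 of the values for single genes changed sign, 31 lost and 3 gained a call, and 675 did neither. The differences that changed sign lay between -0.09 and 0.11 in the main fit. Under an alternative they reached as far as -0.22, for *Fgf9* in the Rnf2 table without control 1. Without a fold threshold 2 members would be called in Kdm2b hippocampus and 5 in neurospheres, and of the other pathway genes 15, 19 and, in the Rnf2 table, 3. With the adjusted p in place of the unadjusted p and the fold threshold kept, 1 member was called in neurospheres. Of the other pathway genes, 0 were then called in cortex and 0 in the Rnf2 table. With a pseudocount of 0.1, 6 other pathway genes were called in Kdm2b hippocampus and 3 in the Rnf2 table. With libraries rescaled to the same total 1 member and 7 other pathway genes were called in neurospheres, and 1 member, *Fgfr3*, differed in its effect between neurospheres and either hippocampus or cortex (1 each). Under this scaling *Fgfr3* in hippocampus was at 0.00417, and in neurospheres *Fgfr1* at 0.11 and *Etv4* at 0.030; with median-ratio scaling *Fgfr1* in neurospheres was at 0.00122 and *Spry1* in the Rnf2 table at -0.00135. With limma-voom on reads 1 member and 3 other pathway genes were called in the Rnf2 table.

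Replicate numbers do not pair the libraries by any label, and deviations of libraries with the same number correlated at 0.05, -0.10 and -0.09 in Kdm2b hippocampus, -0.28 in neurospheres, -0.05 in cortex and 0.16 in the Rnf2 table. With a replicate block 1380 genes were called higher and 1613 lower in neurospheres (1392 and 1620 without it), 2 members stayed called there, and 1 member in place of 2 differed in effect between neurospheres and cortex. The crossed block, added after seeing the data, called 1445 and 1639 genes.

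When single libraries were left out, members called ranged from 1 to 3 in neurospheres and from 0 to 1 in cortex, and other pathway genes from 3 to 5 in Kdm2b hippocampus, from 2 to 4 in cortex and from 0 to 5 in the Rnf2 table. Members that differed in effect ranged from 1 to 3 for neurospheres against hippocampus and from 1 to 3 for neurospheres against cortex. In Kdm2b hippocampus *Fgf9* ranged from -0.064 to 0.13, *Fgfr3* from -0.075 to 0.077, *Spry4* from -0.033 to 0.032 and *Etv4* from -0.0049 to 0.073. *Etv4* ranged from -0.20 to 0.025 in neurospheres and from -0.10 to 0.059 in cortex, where *Spry4* ranged from -0.13 to 0.065. In the Rnf2 table *Fgf9* ranged from -0.22 to 0.25, *Fgfr1* from -0.15 to 0.36, *Fgfr2* from -0.066 to 0.16, *Spry1* from -0.11 to 0.11, *Spry4* from -0.048 to 0.014 and *Etv4* from -0.18 to 0.0071. Leaving out a library from a group of 2 assumes that the remaining one varies like the other group. The cause of these shifts was not tested.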
